A study of Homo sapiens with 10 samples.

Results

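The OAS genes encode the 2′-5′-oligoadenylate synthetase family, and the 4 human members OAS1, OAS2, OAS3 and OASL are described here across every group of the study. They were found by gene name in the count table, where they are 4 of 62709 genes with values and 4 of the 15832 genes with enough reads to be tested. All 4 passed the filter on low counts.

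The study used H441, an established cell line from a human lung adenocarcinoma, kept in medium with 10% FBS. Total RNA was sequenced in 10 libraries of 4 groups. The KO group (n = 3) carried a CRISPR-Cas9 knockout of TET1, a dioxygenase that oxidises 5-methylcytosine in DNA, made in the wild-type line. The OE group (n = 2) was transiently transfected with a plasmid for full-length human TET1. The Lipo group (n = 2, replicates 2 and 3) and the WT group (n = 3) both carry a wild-type genotype and no treatment in the labels, which do not explain the word Lipo or say whether those cells received any plasmid. The labels do not say whether the KO cells were 1 clone. They also leave unstated if each replicate had its own culture, and a p-value here measures the spread between these libraries only. In OE cells a higher level per transfected cell and a larger share of transfected cells cannot be told apart.

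Infected cells carry long double-stranded RNA, and OAS1, OAS2 and OAS3 bind it and make 2′-5′-linked oligoadenylates, called 2-5A. These small messengers lead to the cleavage of viral and cellular RNA in the infected cell. OASL has no synthetase activity in humans, carries ubiquitin-like domains and enhances RIG-I signalling. The genes are classic interferon targets: type I and type III interferons act through JAK1 and TYK2 on the factor ISGF3, which binds the interferon-stimulated response element. Airway epithelium responds to type III interferon through IFNLR1 and IL10RB.

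OAS1, OAS3 and OAS2 lie in this order on the plus strand of chromosome 12 (GRCh38, GENCODE 29), at 112906777 to 112933222, 112938352 to 112973249 and 112978395 to 113011723. The gaps between them are 5129 and 5145 bases. OASL lies on the minus strand at 121019111 to 121039242, which is 8007387 bases beyond OAS2. An antisense gene, AC004551.1 (ENSG00000257452), overlaps the cluster and shares 92 exon bases with OAS1 and 0 with OAS2 and OAS3, and it had 0 reads in all 10 libraries. Whether reads were counted by strand is not given. The longest exact run shared between transcripts of any pair of members was 31 bases, between OAS1 and OASL.

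The promoter stretches of OAS1 and OAS3 are shown because interferon acts through elements there and because TET1 acts on cytosines followed by guanine (CpG). RefSeq (GRCh38.p14) gave a promoter for 2 of the 4 members. The 250 bases before each RefSeq start are printed 5′ to 3′, from chr12:112906712-112906961 (plus strand) for OAS1 and chr12:112938224-112938473 (plus strand) for OAS3. Capitals mark matches to the core of the interferon-stimulated response element (ISRE), searched as GAAA, any 2 bases and GAAA, and to the same repeats with 1 base between them, searched as GAAANGAAA.
OAS1: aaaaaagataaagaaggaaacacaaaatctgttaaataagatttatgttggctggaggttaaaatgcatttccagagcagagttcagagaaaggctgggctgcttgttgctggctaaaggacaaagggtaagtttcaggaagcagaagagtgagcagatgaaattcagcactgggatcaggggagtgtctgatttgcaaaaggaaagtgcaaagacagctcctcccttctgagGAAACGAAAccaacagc
OAS3: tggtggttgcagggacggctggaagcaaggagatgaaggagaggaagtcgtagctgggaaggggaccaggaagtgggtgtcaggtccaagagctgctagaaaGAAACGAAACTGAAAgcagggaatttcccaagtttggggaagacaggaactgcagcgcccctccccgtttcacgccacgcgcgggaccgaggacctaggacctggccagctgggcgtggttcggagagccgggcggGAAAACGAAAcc
OAS1 had no ISRE core in the form searched with 2 bases between the repeats. It had 1 GAAANGAAA, the form with 1 base between them, 17 to 9 bases before its start. OAS3 had an ISRE core 143 to 134 and again 12 to 3 bases before its start, and a GAAANGAAA 148 to 140 bases before it that overlaps the more distant of them. Both strands were searched over 300-base windows. Over 35116 promoter windows of that length, 3.57% held the ISRE core and 3.12% held GAAANGAAA. TTCNNNGAA, the core of the gamma-interferon activation site, was found in OAS1 168 to 160 bases before the start and in 7.66% of all windows. The OAS1 window held 1 CpG at 44% GC, and 3.96% of promoter windows held fewer CpG. The OAS3 window held 20 CpG at 61.3% GC, with 58.8% of windows holding fewer, against a median of 14 CpG and 58.7% GC over all windows. A match describes these letters and is not evidence of binding, and the lack of 1 form is not evidence that a response element is absent.

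TET1 itself was read first as a check of the labels. It had 882 and 957 CPM (reads scaled to library size, with TMM factors) in OE libraries, against 0 and 1 reads in Lipo libraries. In KO libraries it had 4, 0 and 8 reads, against 2, 7 and 0 reads in WT libraries, so the knockout could not be seen or refuted at this depth (log2 fold change 0.42, SE 0.87, edgeR adjusted p = 0.813). Libraries held 20994462 to 25981097 reads in genes. All 8 lung epithelial markers were detected in every group, but their levels were not the same in each. SFTPB, a surfactant protein gene, averaged 49.5 ± 9.47 CPM in KO (n = 3), 29.7 ± 0.586 CPM in OE (n = 2), 75.9 ± 1.69 CPM in Lipo (n = 2) and 195 ± 20.4 CPM in WT libraries (SD, n = 3). It was called 3.93-fold lower in KO than in WT, 2.55-fold lower in OE than in Lipo and 2.56-fold lower in Lipo than in WT cells (edgeR adjusted p = 3.79e-07, 1.27e-04 and 6.74e-04). CDH1 and KRT7 were also called in KO against WT cells, both lower (log2 fold changes -0.75 and -0.46), and KRT7 in OE against Lipo cells, higher (0.63), these 3 being named after their values were seen. The 6 leukocyte markers summed to between 0.265 and 3.36 CPM in any library. Of 5 fibroblast markers, DCN and PDGFRB were at 0 in all libraries, while the list, nearly all COL1A1 and LUM, summed to 70.9 to 77.7 CPM in KO, 343 to 351 in OE, 169 to 183 in Lipo and 177 to 289 in WT libraries. Of 4 endothelial markers KDR made up most of a sum of 82.6 to 117 CPM in all libraries. Mitochondrial reads made up 5.44 to 7.25% of KO, 4.74 to 4.89% of OE, 8.04 to 8.72% of Lipo and 5.47 to 6.15% of WT libraries. WT replicate 1 stood apart from WT replicates 2 and 3, with a mean chi-square per gene of 42.8 and 46.6, against 6.36 between those. The KO libraries differed from each other as much, at 39.7 to 65.4, with KO replicates 1 and 3 the most unlike pair, against 4.83 between the OE and 6.15 between the Lipo libraries. SFTPB, COL1A1 and LUM thus differed with the OE and the KO group, SFTPB with the Lipo group too, and the mitochondrial share was highest in Lipo libraries, so that it moved with both OE against Lipo and Lipo against WT. Their part in the results below was not tested.

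All 4 OAS genes were far higher in TET1-transfected cells than in Lipo cells. OAS2 rose the most, 720.3-fold, followed by OASL at 48.2-fold, OAS1 at 24.9-fold and OAS3 at 12.4-fold. All 4 members were called higher by edgeR's quasi-likelihood test at an adjusted p under 0.05, against a background of 12.3% of genes called in either direction and 6.79% called higher. In all 4 both OE libraries lay above both Lipo libraries, which held for 32.8% of genes tested. Among 15832 genes ordered by their rise, OAS2 stood at place 10, OASL at 77, OAS1 at 112 and OAS3 at 180.

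OAS1 (ENSG00000089127), the synthetase with a single catalytic unit, had 777 and 765 CPM in OE libraries, against 30 and 32.0 CPM in Lipo libraries. The groups did not overlap, and the spread within each was a few percent of its mean. Its mean was 771 ± 8.15 CPM in OE and 31.0 ± 1.40 CPM in Lipo cells (SD, n = 2 each), a log2 fold change of 4.64 (SE 0.21, edgeR adjusted p = 9.60e-10).

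OAS2 (ENSG00000111335), which has a second, inactive copy of the unit, had 1551.0 and 1573.6 CPM in OE libraries, against 2.75 and 1.55 CPM in Lipo libraries. It was close to silent in Lipo cells, where 66 and 34 reads were counted, against 31461 and 34220 reads in OE cells. The log2 fold change was 9.49 (SE 0.27, edgeR adjusted p = 9.20e-12), and the size of this fold rests on those few Lipo reads.

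OAS3 (ENSG00000111331), the longest synthetase, had 2437.1 and 2393.4 CPM in OE libraries, against 201 and 187 CPM in Lipo libraries. Per length it was the most abundant member in both groups, and it had the smallest fold of the 4. Its log2 fold change was 3.64 (SE 0.14, edgeR adjusted p = 2.34e-10).

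OASL (ENSG00000135114), the member without synthetase activity, had 333 and 343 CPM in OE libraries, against 6.66 and 7.34 CPM in Lipo libraries. The groups were again far apart, with a log2 fold change of 5.59 (SE 0.37, edgeR adjusted p = 8.72e-08). Set against WT in place of Lipo it was 7.23, and against all 5 libraries labelled wild type 6.35, since Lipo cells had more OASL than WT cells.

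**Figure D1:**
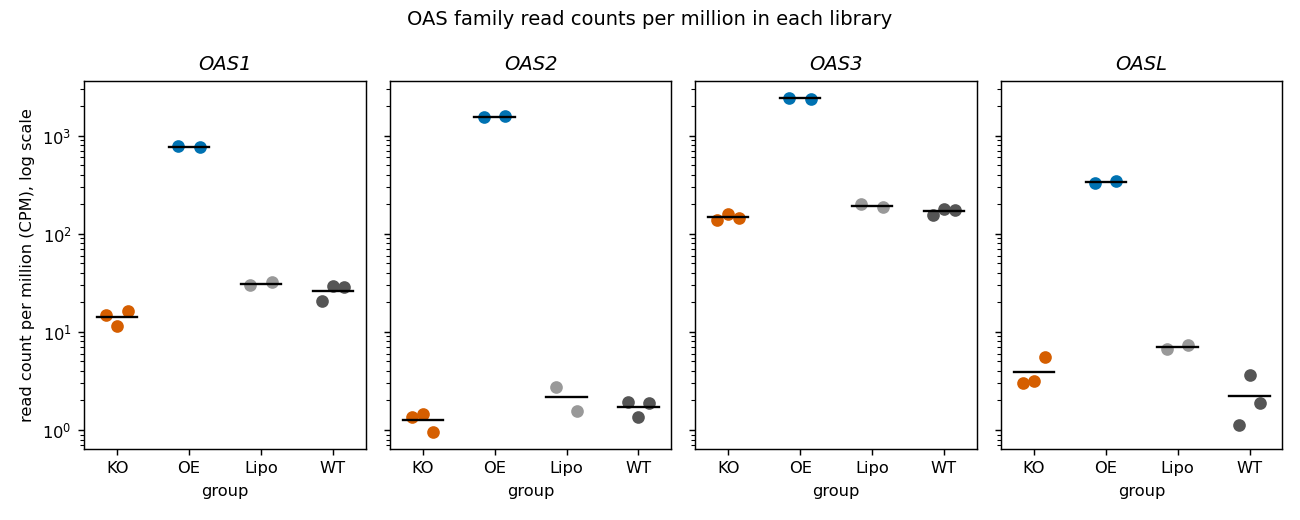
CPM (log axis) of OAS1, OAS2, OAS3 and OASL in each of the 10 libraries, 1 point per library and a bar at the group mean. OE points lie far above the other groups for all 4 genes, and KO points lie below WT points without overlap for OAS1.

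Knocking out TET1 was accompanied by a lower level of 1 of the 4 members. OAS1 was 1.84-fold lower in KO than in WT cells and passed the test. OAS2, OAS3 and OASL did not pass it. Over all genes, 12.6% were called in this comparison and 7.45% were called lower, so 1 of 4 is not a share that sets the members apart.

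OAS1 had 14.8, 11.6 and 16.3 CPM in KO libraries, against 20.6, 29.3 and 28.8 CPM in WT libraries. Every KO library was below every WT library, which held for no other member and for 14.5% of genes tested. The mean was 14.3 ± 2.41 CPM in KO and 26.2 ± 4.85 CPM in WT cells (SD, n = 3 each). The log2 fold change was -0.88 (SE 0.15, edgeR adjusted p = 0.00162). Leaving out each library in turn gave -1.03 to -0.75 with adjusted p of at most 0.0124.

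OAS2 had 1.37, 1.45 and 0.953 CPM in KO libraries, against 1.95, 1.37 and 1.88 CPM in WT libraries. The groups overlapped, and the log2 fold change was -0.45 (SE 0.24, edgeR adjusted p = 0.253). OAS3 had 137, 158 and 146 CPM in KO libraries, against 157, 178 and 173 CPM in WT libraries. They overlapped by a single pair of libraries, with a log2 fold change of -0.20 (SE 0.11, edgeR adjusted p = 0.242).

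OASL had 3, 3.13 and 5.59 CPM in KO libraries, against 1.13, 3.63 and 1.88 CPM in WT libraries. WT replicate 2 lay above both of the lower KO libraries, so the groups overlapped, with a log2 fold change of 0.80 (SE 0.32, edgeR adjusted p = 0.124). The gene was called without WT replicate 2 (1.37, adjusted p = 0.0116) and had the opposite sign against all 5 libraries labelled wild type (-0.08, adjusted p = 0.943).

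The Lipo and WT groups carry the same genotype and treatment labels, and their comparison shows how far libraries with those labels differed. OASL was 3.11-fold higher in Lipo than in WT cells and was the only 1 of the 4 members called, where 3.70% of all genes were called and 1.32% were called higher. Its 6.66 and 7.34 CPM in Lipo libraries lay above all WT libraries, of which the highest had 3.63 CPM. OAS1 and OAS3 also lay above all WT libraries, making 3 of 4 members where 21.3% of genes tested did so. For OASL the log2 fold change was 1.64 (SE 0.33, edgeR adjusted p = 0.0140). The call was lost without Lipo replicate 2 (adjusted p = 0.109), without Lipo replicate 3 (0.192) and when only these groups entered the fit (0.0526).

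The synthetases themselves were not called between Lipo and WT cells. OAS1 averaged 31.0 ± 1.40 CPM in Lipo and 26.2 ± 4.85 CPM in WT cells (log2 fold change 0.24, SE 0.17, edgeR adjusted p = 0.473). The log2 fold change was 0.32 for OAS2 (SE 0.25, adjusted p = 0.520) and 0.20 for OAS3 (SE 0.12, adjusted p = 0.397). OAS2 in Lipo replicate 3, at 1.55 CPM, lay within the WT range.

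**Figure D2:**
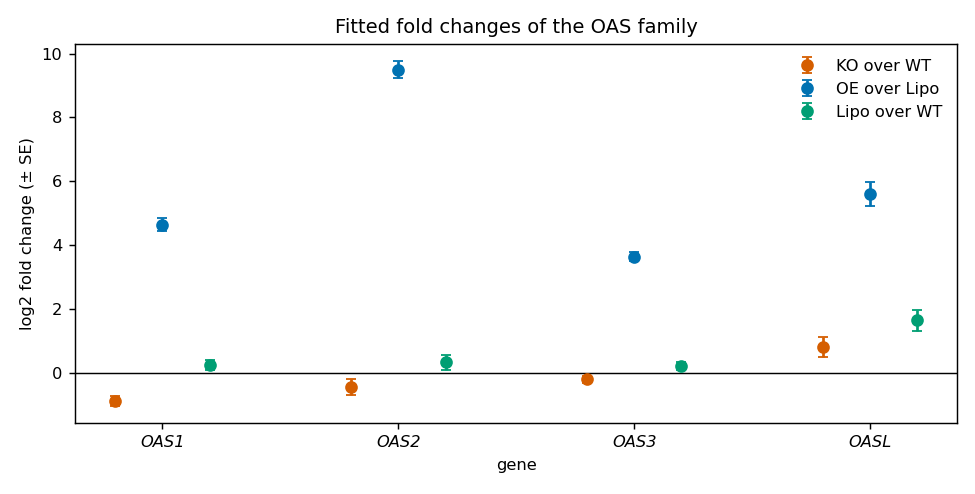
Log2 fold change (± SE) of the 4 OAS genes in OE over Lipo, KO over WT and Lipo over WT, from 1 fit of the 10 libraries. The OE values run from 3.64 for OAS3 to 9.49 for OAS2, while the other values lie between -0.88 and 1.64.

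The effect of the knockout and that of transfection were also set against each other in 1 test. The KO effect minus the OE effect on the log2 scale was -5.52 for OAS1 (SE 0.25, edgeR adjusted p = 2.07e-09) and -9.95 for OAS2 (SE 0.34, adjusted p = 1.75e-10). It was -3.84 for OAS3 (SE 0.17, adjusted p = 1.92e-09) and -4.80 for OASL (SE 0.47, adjusted p = 5.56e-06). All 4 members passed this test, where 16.6% of all genes did and 9.47% had a negative difference.

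Levels of different members can be compared only per length, here as CPM per kilobase of annotated exon (CPM per kb), which depends on all annotated exons being used alike. In KO cells the order was OAS3 at 17.8 ± 1.31, OAS1 at 2.88 ± 0.488, OASL at 1.11 ± 0.415 and OAS2 at 0.200 ± 0.0423 CPM per kb (SD, n = 3). In OE cells it was OAS3 at 293 ± 3.75, OAS2 at 249 ± 2.56, OAS1 at 156 ± 1.65 and OASL at 96.0 ± 1.97 CPM per kb (SD, n = 2). In each OE library the 4 members kept this order without overlap. In Lipo cells it was OAS3 at 23.5 ± 1.13, OAS1 at 6.27 ± 0.283, OASL at 1.99 ± 0.136 and OAS2 at 0.343 ± 0.135 CPM per kb (SD, n = 2). In WT cells it was OAS3 at 20.5 ± 1.32, OAS1 at 5.31 ± 0.980, OASL at 0.629 ± 0.365 and OAS2 at 0.277 ± 0.0502 CPM per kb (SD, n = 3). OASL and OAS2 did not differ beyond their spread in WT cells, where replicate 1 had 0.320 and 0.311 CPM per kb. OAS2 was second in OE cells and lowest in KO, Lipo and WT cells, while the other members kept their order in all 4 groups.

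Set among the 15352 tested genes with an exon length, OAS2 per kb lay above 99.1% of genes in OE cells and above 15.7% in Lipo cells. OAS3 lay above 99.3% in OE and 87.1% in Lipo cells. OAS1 lay above 98.4% in OE and 61.5% in Lipo cells, and OASL above 97.2% in OE and 39.0% in Lipo cells. The members were thus spread widely in Lipo cells, from 15.7% to 87.1%, and close together near the top in OE cells. In KO cells the shares were 45.1% for OAS1, 9.97% for OAS2, 83.4% for OAS3 and 29% for OASL, against 57.9%, 12.3%, 85.5% and 21.3% in WT cells in the same order of genes.

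The makeup of the family followed from these levels. Of the summed CPM per kb, OAS3 made up 36.9 ± 0.431% in OE and 73.2 ± 1.59% in Lipo cells. OAS2 made up 31.4 ± 0.357% in OE and 1.06 ± 0.393% in Lipo cells, and OASL 12.1 ± 0.261% in OE and 6.21 ± 0.587% in Lipo cells. OAS1 made up a like share in both groups, 19.6 ± 0.186% in OE and 19.5 ± 1.39% in Lipo cells (SD, n = 2 each). The shift was thus between OAS3 on one side and OAS2 and OASL on the other. In KO cells OAS1 made up 13.1 ± 2.40% and OAS3 80.9 ± 3.47%, against 19.7 ± 1.93% and 76.9 ± 2.56% in WT cells (SD, n = 3 each). Within a library OAS3 exceeded OAS2 per kb 1.15 to 1.19 times in OE and 55.4 to 91.8 times in Lipo cells. OAS3 exceeded OAS1 per kb 5.37 to 8.18 times in KO and 3.60 to 4.56 times in WT cells, ranges that did not overlap. The 4 genes together took 0.493% and 0.492% of all reads in OE libraries, against 0.0234% and 0.0222% in Lipo libraries.

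**Figure D3:**
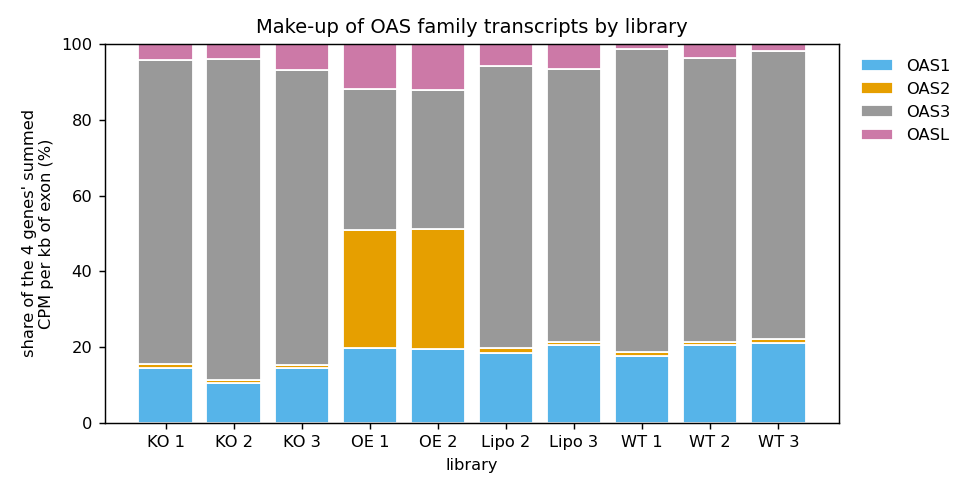
Share (%) of each OAS gene in the summed CPM per kb of the 4 genes, as a stacked bar for each of the 10 libraries. OAS3 makes up most of every KO, Lipo and WT bar, and OAS2 takes about as much as OAS3 in the OE bars.

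Of 3 tested genes that act on 2-5A or beside it, here called partners, 0 were called in OE against Lipo cells and 0 in Lipo against WT cells by edgeR, with 0 at an unadjusted p under 0.05 and 0 by DESeq2 in both. ABCE1, a ribosome recycling factor that also restrains the 2-5A pathway, averaged 146 ± 3.22 CPM in OE and 158 ± 0.781 CPM in Lipo cells. PDE12, a phosphodiesterase that degrades 2-5A, averaged 27.9 ± 2.45 CPM in OE and 23.4 ± 1.36 CPM in Lipo cells (SD, n = 2 each). The OE values of PDE12 lay above the Lipo values, as for 32.8% of genes tested, but with edgeR adjusted p = 0.443. Set against WT in place of Lipo, PDE12 was called higher (log2 fold change 0.51, edgeR adjusted p = 0.0449). AKAP7, whose mouse protein degrades 2-5A, was the 1 partner called in KO against WT cells, where 12.6% of all genes were called. It averaged 3.31 ± 0.427 CPM in KO and 1.54 ± 0.340 CPM in WT cells (SD, n = 3 each), a log2 fold change of 1.10 (SE 0.31, edgeR adjusted p = 0.0293). This call was lost without KO replicate 2 (0.0751), KO replicate 3 (0.0641), WT replicate 2 (0.140) or WT replicate 3 (0.0868). The median log2 fold change of the 3 partners was 0.25 in OE against Lipo, beside 5.11 for the OAS genes and -0.01 for all genes tested.

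Most other sensors of double-stranded RNA were also higher in transfected cells. Of 9 tested, 7 were called higher and 0 lower in OE against Lipo cells, with a median log2 fold change of 2.46. Over all genes 6.79% were called higher and 5.53% lower. IFIH1, which encodes the sensor MDA5, averaged 312 ± 3.14 CPM in OE and 34.4 ± 3.37 CPM in Lipo cells (log2 fold change 3.18, SE 0.16, edgeR adjusted p = 2.95e-09). DHX58, which encodes the regulator LGP2, averaged 80.7 ± 3.20 CPM in OE and 14.6 ± 0.600 CPM in Lipo cells (2.46, SE 0.19, adjusted p = 3.23e-07). EIF2AK2, the translation-stopping kinase PKR, averaged 522 ± 6.26 CPM in OE and 152 ± 5.71 CPM in Lipo cells (1.78, SE 0.15, adjusted p = 1.08e-06). ZBP1, a sensor of Z-form nucleic acid, had 453 reads in OE and 2 reads in Lipo libraries, a ratio of 248 (95% counting interval 68.2 to 2051.4). ZBP1 passed the filter on low counts only through OE libraries, so its call adds no support of its own. MAVS, the adaptor of the RIG-I-like receptors, and PRKRA, an activator of PKR, did not pass and are named after their values were seen (log2 fold changes -0.46 and 0.01). In KO against WT cells 1 of the 9 was called, where 12.6% of all genes were, so this share does not set the sensors apart. DHX58 was the one called, at 10.9 ± 1.57 CPM in KO and 15.4 ± 1.75 CPM in WT cells (-0.51, SE 0.15, edgeR adjusted p = 0.0387). That call was lost without KO replicate 2, WT replicate 2, WT replicate 3 or any 1 of the OE or Lipo libraries (adjusted p up to 0.155) and with only the KO and WT groups fitted (0.139). Between Lipo and WT cells 0 of the 9 were called by edgeR, 0 at an unadjusted p under 0.05 and 0 by DESeq2.

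Type III interferon ligands were high in OE libraries and at or near 0 reads elsewhere. IFNL1, a type III interferon, had 72 and 78.2 CPM in OE libraries. It had 3162 reads in OE and 1 read in Lipo libraries, a ratio of 3457.7 (95% counting interval 620.1 to 136612.7). IFNL2 had 474 reads in OE and 0 in Lipo libraries, at least 173-fold higher against a floor of 3 reads over the group, and IFNL3 had 438 and 0, at least 159.7-fold higher. IFNL2 and IFNL3 are near-identical copies, so their split is uncertain. These 3 were all the ligands with enough reads to test, and they had those reads only in OE libraries. All 3 were called by edgeR in OE against Lipo cells, IFNL3 not by DESeq2 (adjusted p = 0.146). As the filter on low counts passed them through OE libraries alone, these calls add no support of their own. IFNB1, with too few reads to test, had 21 in OE and 0 in Lipo libraries, and IFNA1, IFNA2, IFNE and IFNG had 0 in all libraries.

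Of 9 tested genes of interferon receptors, kinases and factors, 4 were called higher and 0 lower in OE against Lipo cells (median 0.47). Over all genes 6.79% were called higher and 5.53% lower. IRF1 averaged 73.0 ± 1.90 CPM in OE and 13.9 ± 1.17 CPM in Lipo cells (log2 fold change 2.39, edgeR adjusted p = 9.07e-07), and STAT2 134 ± 4.66 CPM in OE and 50.9 ± 0.217 CPM in Lipo cells (1.39, adjusted p = 6.56e-05). IFNLR1, the receptor chain for type III interferon, averaged 20 ± 0.431 CPM in OE and 8.94 ± 0.0734 CPM in Lipo cells (1.16, adjusted p = 0.00432), a call lost without either Lipo library (adjusted p up to 0.0601). JAK1, the receptor kinase, was the other one called (0.47, adjusted p = 0.0438), a call lost on leaving out any 1 of the OE or Lipo libraries, WT replicate 2 or WT replicate 3 (adjusted p up to 0.282), with library size alone (0.0611) and with no filter (0.0864).

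IFNLR1 was the 1 gene of these 9 called in KO against WT cells, where 12.6% of all genes were called. It had 0 reads in all 3 KO libraries, against 755 in WT libraries, at least 249-fold lower with the floor of 3 reads over the group (edgeR adjusted p = 9.03e-09). IL10RB, its partner chain, averaged 2.04 ± 0.395 CPM in KO and 1.80 ± 0.701 CPM in WT cells (adjusted p = 0.808). Of the 9, 0 were called in Lipo against WT cells by edgeR, 2 at an unadjusted p under 0.05 and 0 by DESeq2.

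The brakes of interferon signalling were all called in OE against Lipo cells, 4 of 4 higher with a median of 3.12. Over all genes 6.79% were called higher. USP18, which blocks the type I receptor, averaged 146 ± 15.8 CPM in OE and 13.0 ± 0.181 CPM in Lipo cells (log2 fold change 3.48, edgeR adjusted p = 1.05e-08). ISG15, the ubiquitin-like protein that stabilises USP18 in humans, averaged 1624.2 ± 27.2 CPM in OE and 44.7 ± 10.5 CPM in Lipo cells (5.18, adjusted p = 8.00e-08). SOCS1 and SOCS3, inhibitors of JAK kinases, had log2 fold changes of 2.75 (adjusted p = 0.00829) and 0.77 (adjusted p = 0.0214), and both calls were lost with 1 library left out, SOCS1 without OE replicate 1 or Lipo replicate 2 (adjusted p up to 0.104) and SOCS3 on leaving out any 1 of the OE or Lipo libraries (up to 0.172). In KO against WT cells 0 of 4 were called by edgeR, 0 at an unadjusted p under 0.05 and 0 by DESeq2. In Lipo against WT cells the 3 counts were 0, 1 and 0.

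The other listed targets of ISGF3 gave the nearest yardstick for the OAS genes. All 20 were called higher in OE against Lipo cells, where 6.79% of all genes were. The list was chosen with earlier results of these data known, so this count adds no support of its own. The median log2 fold change was 5.59 beside 5.11 for the 4 OAS genes. With the 2 targets that had 0 Lipo reads set to their lower bounds it was 5.50. Those 2, XAF1 and IFI27, passed the filter on low counts only through OE libraries, so their calls add no support of their own. IFIT1, IFIT2 and IFIT3, which restrict viral RNA and translation, had log2 fold changes of 7.20, 6.50 and 7.47, and IFI44L, an interferon-induced protein of incompletely known function, 7.28 (edgeR adjusted p = 3.84e-11, 9.20e-12, 3.84e-11 and 9.20e-12). OAS2, at 9.49, lay above all 4 of them and the other OAS genes below. These 4 were picked by smallest p and not by size of change. RSAD2 and XAF1, named here after their values were seen, rose more than OAS2. RSAD2 had 10.53 on 8 Lipo reads, and XAF1, with 0 Lipo reads, was at least 1737.9-fold higher. The other targets of the list had lower fitted values than OAS2. ISG15 stands in both this list and that of the brakes.

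In KO against WT cells 4 of these 20 targets were called higher and 2 lower, with a median of 0.13. Over all genes 5.13% were called higher and 7.45% lower. IFIT2 averaged 11.8 ± 0.902 CPM in KO and 4.77 ± 0.598 CPM in WT cells (log2 fold change 1.31, SE 0.13, edgeR adjusted p = 1.12e-05). IFIT3 and IFIT1 had 1.55 (adjusted p = 5.48e-05) and 0.82 (adjusted p = 0.00605), and XAF1, a pro-apoptotic factor, 2.51 (adjusted p = 0.0153). The XAF1 call was lost without KO replicate 3 (0.0684) or WT replicate 2 (0.0613), and the IFIT1 call with only the KO and WT groups in the fit (0.0531). IFI6 (-0.96, adjusted p = 0.0207) and SAMD9L (-0.67, adjusted p = 0.0292) were the lower ones, named after their values were seen. OAS1 thus fell in cells where IFIT1, IFIT2 and IFIT3 rose. In Lipo against WT cells 1 of 20 was called, IFIT2 (0.63, adjusted p = 0.0320), a call lost without either Lipo library (0.278 and 0.224), without WT replicate 2 (0.150) or 3 (0.0556), without either OE library (0.0745 and 0.0753), with library size alone (0.0557) and with only these groups fitted (0.112). DESeq2 called 4 of the 20. Over all genes edgeR called 3.70% in Lipo against WT cells.

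**Figure D4:**
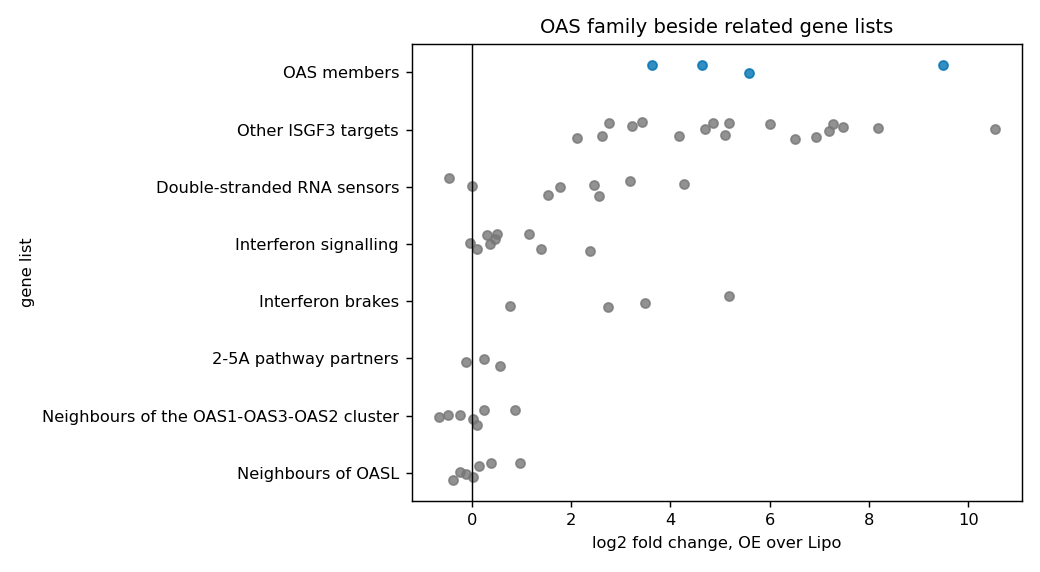
Log2 fold change in OE over Lipo (x axis) of the OAS genes and of the other lists (rows), 1 point per tested gene, with vertical scatter of no meaning and genes of 3 or fewer Lipo reads left out. All OAS genes and plotted ISGF3 targets lie above 2, while the 2-5A partners lie between -0.12 and 0.57.

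The nearest protein-coding genes on each side of the OAS loci give the local background. Of 8 tested neighbours of the OAS1-OAS3-OAS2 cluster, 1 was called higher and 1 lower in OE against Lipo cells, with a median of 0.06. Over all genes 6.79% were called higher and 5.53% lower. TRAFD1, a negative regulator of innate immune signalling that lies 753168 bases below OAS1, averaged 142 ± 8.50 CPM in OE and 77.0 ± 4.69 CPM in Lipo cells (log2 fold change 0.88, SE 0.14, edgeR adjusted p = 7.46e-04). PTPN11, a phosphatase gene, was lower (-0.65, adjusted p = 0.0184), a call lost on leaving out any 1 of the OE or Lipo libraries. RPH3A, the closest neighbour, 7896 bases from OAS1, had 22 reads in OE and 0 in Lipo libraries, at least 8.02-fold higher against 3 reads over the group, without passing the test (adjusted p = 0.0501). DTX1, on the other side and 44986 bases from OAS2, had too few reads to test.

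Of 7 neighbours of OASL, 0 were called in OE against Lipo cells by edgeR, 0 at an unadjusted p under 0.05 and 0 by DESeq2 (median 0.03). Over all genes 12.6% were called in KO against WT cells. There RPL6, a ribosomal protein gene near the cluster, was called higher (0.63, edgeR adjusted p = 0.00968). ACADS, a fatty acid oxidation gene near OASL, had 3 reads in KO and 47 in WT libraries, a ratio of 0.0645 (95% counting interval 0.0128 to 0.200). The RPL6 call was lost without WT replicate 2 (0.0541) or WT replicate 3 (0.0575). In Lipo against WT cells edgeR called 0 of the 8 cluster neighbours, with 2 at an unadjusted p under 0.05 and 0 by DESeq2, and 0 of the 7 OASL neighbours, with 0 and 0.

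**Figure D5:**
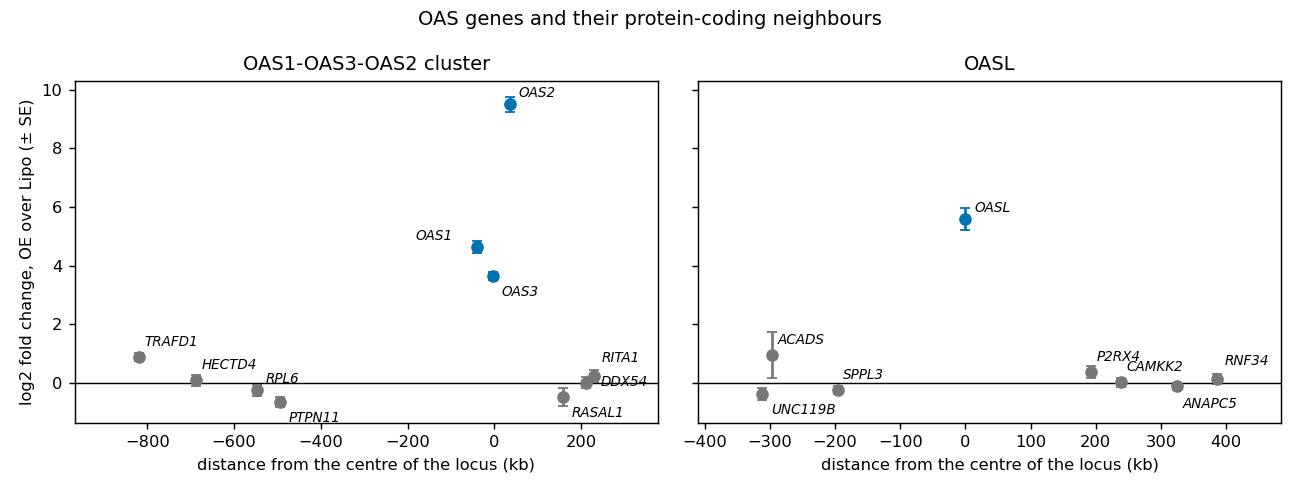
Log2 fold change (± SE) in OE over Lipo of the OAS genes and their tested protein-coding neighbours, against distance from the centre of each locus in kb, without neighbours of 3 or fewer Lipo reads. The OAS genes stand at 3.64 to 9.49 and the neighbours plotted lie between -0.65 and 0.97.

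For each member the genes with the most similar pattern over the 10 libraries were found as the smallest Euclidean distance between centred log2 CPM values, among 12172 protein-coding candidates. OAS1 was nearest to BATF2 (1.41), IFI27 (1.52), ISG15 (1.53), SAMD9L (1.60) and CSF3 (1.62). BATF2 encodes a leucine zipper factor, and IFI27 and ISG15 are classic interferon-induced genes. OAS2 was nearest to IFNL1 (1.91), MX1 (2.71), CXCL10 (2.74), RSAD2 (3.07) and IFI44L (3.09). MX1 and RSAD2 encode antiviral proteins and CXCL10 a chemokine. OAS3 was nearest to USP18 (0.502), SCN3A (0.730), IFI35 (0.735), APOL1 (0.841) and IFIH1 (0.847). OASL was nearest to ISG15 (1.97), IFIT2 (2.37), IFI44L (2.40), IFNL3 (2.42) and SLC15A3 (2.46). No member was among the nearest 5 of another. Between members the distance was smallest for OAS1 and OAS3 (1.97) and largest for OAS2 and OAS3 (7.64), which lie side by side on the chromosome. The prior count of 2 reads shrinks the changes of low genes such as IFI27, IFNL1, OAS2, CSF3 and SCN3A. CSF3 averaged 2.04 CPM in OE and 0 in Lipo cells, and SCN3A 1.31 and 0, so their closeness to OAS1 and OAS3 depends on that count. For every member the OE libraries lay far above the rest, so the distance largely reflects the size of that rise. IFI27, CSF3 and IFNL3 averaged 0 CPM in KO, Lipo and WT cells, and IFNL1, CXCL10, SCN3A and SLC15A3 at most 0.114. The closeness of these genes rests on OE libraries and adds no support of its own.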

How the data were processed

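The deposited table holds read counts per gene for 62709 genes with values, made by the authors with no normalization. Per the submitters' processing notes, HISAT2 2.1.0, FastQC, featureCounts and edgeR were used with GRCh38; the role of each, the annotation and the strand setting are not given in the sources used here. Libraries were made from total RNA with a strand-keeping low-input kit, per the labels. A further 2 columns of the table match no sample and were not used, and 1 row without values was left out.

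Counts were filtered with filterByExpr over the 4 groups (15832 genes), scaled by TMM and fitted in 1 model of the 10 libraries with edgeR 4.0.16 (R 4.3.3, quasi-likelihood, 6 residual df, two-sided, Benjamini-Hochberg over all genes tested, called at 0.05). The fit was also run on simulated counts that lacked the unequal spread between groups seen here. That run checks the code and not the calls. The SE is the log2 fold change over the square root of the F statistic. Libraries held 20994462 to 25981097 reads; counting intervals (exact, 95%) and the floor of 3 reads cover counting error only. Alternatives were RLE scaling, library size alone, other filters, DESeq2 1.42.0, other control groups, replicate blocks and leaving out each library. Positions and exon lengths came from GENCODE 29, with which all 4 members matched, and promoters from RefSeq GRCh38.p14. The members and gene lists were chosen with earlier results of these data known, and the GAAANGAAA motif after the sequences were seen. Some listed genes are not reported here and were left out of the list counts, medians and figures. Named genes are the members, all partners, up to 4 called genes of each list by smallest p and the 5 genes nearest in pattern to each member. DDX58 was also listed under its other symbol, RIGI, and was counted once.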

Additional observations from a re-analysis of the deposited data

Results flagged for a closer look

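All 4 OAS genes showed a difference between the effect of TET1 knockout and that of TET1 transfection, by edgeR's test of that difference with adjustment over all genes. The KO effect (KO over WT) minus the OE effect (OE over Lipo) on the log2 scale was -5.52 for OAS1, -9.95 for OAS2, -3.84 for OAS3 and -4.80 for OASL. The KO effects alone were -0.88, -0.45, -0.20 and 0.80 in the same order of genes, of which OAS1 passed the test, and the OE effects were 4.64, 9.49, 3.64 and 5.59, all of which passed. The groups differ in more than TET1: OE cells were transfected and KO cells were not, and TET1 reads were too few in both KO and WT libraries to compare.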

How the results depend on the processing

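All 4 OAS genes remained called in OE against Lipo, and in the KO effect minus the OE effect, under every alternative run, and OAS1 remained called lower in KO against WT. Of the members' log2 fold changes over all alternatives, 264 kept direction and side of the threshold, 3 gained a call, 3 lost one and 2 changed sign. In KO against WT, 1 member was called, and 2 with no filter or with the replicate block on KO and WT; leaving out single libraries gave 1 to 2. OASL was the added one (0.79, adjusted p = 0.00184, with no filter; 0.89, adjusted p = 0.0480, with the block), and it was -0.08 against all 5 libraries labelled wild type. In Lipo against WT, 1 member was called, 0 with only these groups fitted, and 0 to 1 with single libraries left out. Genes called in KO against WT numbered 1992, 1216 with only these groups, 3368 with the replicate block on KO and WT, and 1125 to 2297 without single libraries. In OE against Lipo they numbered 1950, 5664 with only these groups, 3953 with WT in place of Lipo, and 673 (without Lipo replicate 3) to 2657. In Lipo against WT they numbered 586, 1100 with no filter, 991 by DESeq2, and 34 (without Lipo replicate 3) to 977. The cause was not tested. Signs changed for uncalled values: OAS2 in Lipo against WT (-0.16 to 0.67 without single libraries), ABCE1 in KO against WT (-0.05 to 0.20, with -2.2e-03 without WT replicate 3) and in Lipo against WT (-0.14 to 0.03).

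Same-numbered KO and WT libraries deviated together with r of 0.328, 0.058 and 0.185, against -0.238 to 0.092 for the other pairings. Each KO library thus correlated best with the WT library of its own number. WT replicate 2, though, correlated better with KO replicate 3 (0.092) than with its own number. Whether the numbers pair samples was not settled, and the main fit did not use them. With a replicate block in the fit of all 10 libraries, 2874 genes and 1 member were called in KO against WT.

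With 2 libraries in the OE and Lipo groups, a library left out leaves 1, assumed to vary like the other groups. OAS2 in Lipo, KO and WT cells rests on 22 to 66 reads a library, which its fold in OE cells depends on.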

Other observations

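IRF9, the DNA-binding part of ISGF3, is listed at 0 in all 10 libraries. Low counts on chromosome 14 were also found for RNF31 and TINF2, genes near it that were looked up after the 0 was seen, with 1 and 16 reads over all 10 libraries. In GENCODE 29, IRF9 shares 1838 of its 3794 exon bases with the same-strand gene AL136295.5, which was also at 0. The 0 is therefore given as listed and not read as absence of IRF9 RNA, and whether the counting dropped reads there was not tested.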
